A study of Mus musculus with 7 samples.

Results

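The 10 genes described here encode proteins of the apicobasal polarity complexes and were taken by symbol from the 25461 genes of the deposited table: Pard3, Pard6b, Pard6g, Prkci, Prkcz, Crb2, Llgl1, Llgl2, Dlg1 and Tjp1. Messenger RNA was measured by RNA-seq in 7 whole E11.5 mouse embryos of the B6C3F1 strain, each sequenced on its own after the tail had been removed for genotyping. The 3 KO embryos (KOAC8-6, KOAC10-5 and KOAC10-8) were SLMAP3 knockouts, in which exon 3 of Slmap had been deleted in all tissues with CMV-cre in an earlier generation and the recombinase then bred out. The 4 WT embryos (KOAC8-1, KOAC9-1, KOAC10-2 and KOAC10-7) carried the undeleted gene. By the study's design the deletion abolishes the largest isoform, SLMAP3, and spares SLMAP1 and SLMAP2. What the series number in the embryo names (KOAC8, KOAC9 or KOAC10) stands for is not given in the labels.

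Epithelial cells keep an apical side, facing the lumen, apart from a basolateral side by means of protein modules that exclude each other. The PAR module (the scaffold PAR3, the adaptor PAR6 and an atypical protein kinase C) and the Crumbs module (a transmembrane protein and its scaffolds) define the apical side, while the Scribble module (Scribble, DLG and LGL proteins) holds the basolateral side. Tight junctions, organised by ZO proteins, lie at the border. In the neural tube the apical side lines the central canal, and this polarity directs apical actin assembly and bending of the neural plate. The study stained the atypical kinase PKCζ (Prkcz) and ZO-1 (Tjp1) in neural tubes of earlier stages to see where each protein lay. The transcripts, from whole E11.5 embryos, address only whether the amounts of the Prkcz and Tjp1 messages, and of those of partners, differed between genotypes.

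The values are FPKM, fragments normalised to transcript length and library depth, 1 per gene and embryo. Each library held an estimated 54500000 to 81600000 counts on genes. The authors' mean normalized count of the members ran from 564 for Llgl2 to 15133 for Llgl1, so that the counting error of a mean count of that size was 4.21% for Llgl2 and 0.813% for Llgl1. Slmap measured 19.6 FPKM in KOAC8-6, 16.0 in KOAC10-5 and 16.6 in KOAC10-8, and 22.8 to 31.2 FPKM in the WT embryos, with no overlap. The summed hepatoblast markers were at 25.3 to 42.6 FPKM in 3 embryos (KO KOAC10-5, WT KOAC10-7 and KOAC10-2) and at 413 to 767 FPKM in the other 4. Afp alone was at 1.30 to 5.18 FPKM in those 3 and at 255 to 376 FPKM in the other 4. Ttr, also in the sum, went with genotype instead, at 14.4 to 15.3 FPKM in KO and 32.3 to 53.1 FPKM in WT embryos. Whole embryos cannot tell fewer cells of a type apart from less RNA per cell.

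All 10 members were expressed, with mean levels over the 7 embryos that spanned a factor of 15.2. In FPKM, which is per transcript length, Llgl1 stood highest at a mean of 57.2, followed by Dlg1 at 48.3, Pard3 at 32.7, Tjp1 at 30.6, Pard6g at 23.8, Prkci at 22.5, Prkcz at 8.52, Crb2 at 7.40, Pard6b at 3.81 and Llgl2 at 3.75. Neighbours in this order were compared within embryos in 9 exact sign-flip tests (two-sided, adjusted by Benjamini-Hochberg over the 9), for which 0.0156 is the smallest unadjusted p that 7 embryos allow. These tests weigh the spread among embryos, not an error in transcript length that all embryos share. The order and its pairs were taken from the means of the same values. The p-values are therefore no independent support for the order. The first gene was the higher one in 7 of 7 embryos, with an adjusted p = 0.0281 in the exact test, for the pairs Llgl1 over Dlg1, Dlg1 over Pard3, Tjp1 over Pard6g, Prkci over Prkcz and Crb2 over Pard6b. Pard6g was above Prkci in 6 of 7 embryos by a mean log2 ratio of 0.08 ± 0.05 (SD, n = 7; exact test, adjusted p = 0.0469). The order was not resolved between Pard3 and Tjp1 (5 of 7 embryos, adjusted p = 0.352 in the exact test), Prkcz and Crb2 (5 of 7, adjusted p = 0.281) or Pard6b and Llgl2 (4 of 7, adjusted p = 0.625). The plot of member levels by embryo shows the levels together with their spread.

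**Figure D1:**
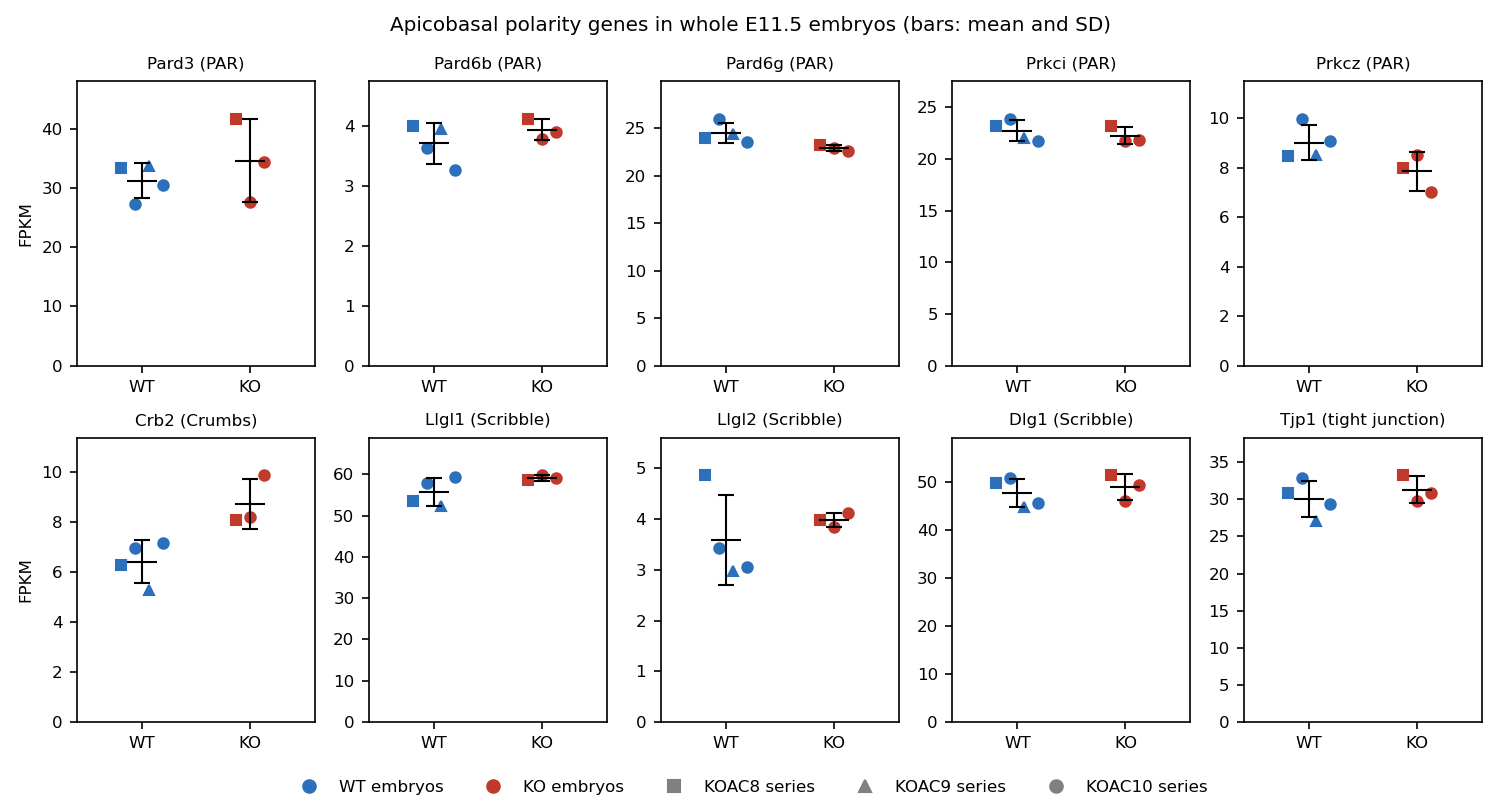
Level of each of the 10 polarity genes (vertical axis, FPKM from 0) in the 4 WT (blue) and 3 KO (red) embryos, with symbols for the KOAC series of the embryo name and black bars for the mean and SD. Crb2 is higher in all 3 KO embryos than in any WT embryo, Pard6g is lower in all 3, and the genotypes overlap for the other 8 genes.

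Between genotypes, 0 of the 10 members had an adjusted p under 0.05 in limma, with adjustment over the 16095 genes that averaged at least 1 FPKM, where 0.0373% of all genes tested did. Slmap, the targeted gene, did not reach it either, with a log2 difference of -0.59 (unadjusted p = 0.00221, adjusted p = 0.278 in limma). The lack of an adjusted call therefore does not show that a gene was unchanged. An unadjusted p under 0.05 was reached by 1 member, Crb2, against 11.5% of all genes tested. Crb2 lay higher in every KO embryo, as 5.61% of all genes did, and Pard6g lower in every KO embryo, as 5.98% of all genes did. The values of KO and WT embryos thus did not overlap for 2 of the 10 members, beside 11.6% of all genes tested. Fitted differences, on the log2(FPKM + 1) scale, were positive for 7 members and negative for 3, with a median of 0.06 against 0.01 over all genes tested, and 9 of the 10 lay within 0.2 of 0. Without KOAC8-6 the median of the members was 0.0072 and that of all genes 0.013, and in the KOAC10 embryos alone they were 0.0020 and 0.015. This scale understates the differences of low genes. The p-values measure the spread among these embryos, each of which was a separate animal, and 3 against 4 embryos cannot give an exact permutation p below 0.0286.

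**Figure D2:**
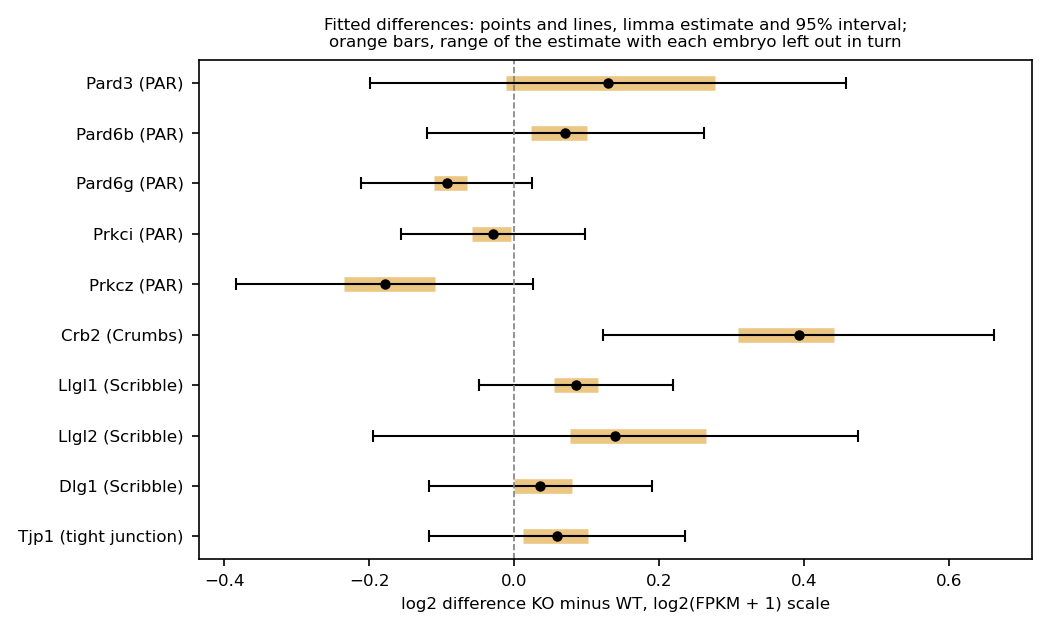
Fitted log2 difference, KO minus WT (horizontal axis, log2(FPKM + 1) scale), for the 10 polarity genes, with 95% intervals from limma as black lines and the range of estimates with each embryo left out in turn as orange bars. The interval of Crb2 runs from 0.12 to 0.66 and stays above 0, while those of the other 9 genes include 0.

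Crb2, the transmembrane Crumbs protein of the neuroepithelium and the single member of the Crumbs module examined, showed the largest difference among the members. Crb2 was at 8.07 FPKM in KOAC8-6, 8.20 in KOAC10-5 and 9.89 in KOAC10-8, and in WT embryos at 6.27 FPKM in KOAC8-1, 5.29 in KOAC9-1, 7.17 in KOAC10-2 and 6.95 in KOAC10-7. The lowest KO value therefore lay above the highest WT value. KO embryos averaged 8.72 ± 1.01 FPKM (SD, n = 3), which is 136% of the WT average of 6.42 ± 0.844 FPKM (SD, n = 4). The log2 difference of Crb2 was 0.39 (standard error 0.11, 95% interval 0.12 to 0.66), with an unadjusted p = 0.0106 and an adjusted p = 0.330 in limma. It ranked 515 of 16095 genes by p-value. An exact permutation test of Crb2 gave p = 0.0286 (two-sided), the smallest that the design allows.

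Since every KO value of Crb2 lay above every WT value, its direction was bound to be the same within each KOAC series with both genotypes. In KOAC8 it was 8.07 FPKM in the KO and 6.27 FPKM in the WT embryo, and in KOAC10 the KO embryos were at 8.20 and 9.89 FPKM against 7.17 and 6.95 FPKM in the WT embryos. With the series as a block the log2 difference of Crb2 was 0.32 (unadjusted p = 0.0137 in limma), and in the 4 KOAC10 embryos alone it was 0.31 (unadjusted p = 0.0570). KOAC9-1, the only embryo of its series, adds nothing to the block estimate, which equals the 0.32 found without that embryo. With the 3 embryos poor in hepatoblast markers left out the log2 difference of Crb2 was 0.56 (unadjusted p = 0.0148).

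Neural progenitor markers are given beside Crb2. Of 7 such markers, 0 had an adjusted p under 0.05 in limma, and 6 (Sox1, Sox2, Sox3, Nes, Pax6 and Hes5) had a positive difference with an unadjusted p under 0.05, where 5.27% of all genes had both. The log2 difference of Fabp7, the most abundant of them, was -0.022. The 3 KO and 4 WT embryos overlapped in the summed level of the 7, which ran from 661 to 740 FPKM in KO and from 598 to 683 FPKM in WT embryos. Without Fabp7, a sum computed after the values had been seen, they did not overlap, at 315 to 388 FPKM in KO and 241 to 307 FPKM in WT embryos. The median log2 difference of the 7 was 0.44, and their lowest mean level was 8.18 FPKM. With their mean log2 level as a covariate, the log2 difference of Crb2 was 0.13 (standard error 0.17, 95% interval -0.28 to 0.53, unadjusted p = 0.467 in limma). This mean level itself went with genotype, at 5.65 to 5.99 in KO and 5.39 to 5.67 in WT embryos. That fit therefore separates marker level from genotype only poorly. Taken as a ratio to the mean of these markers within each embryo, Crb2 differed by 0.09 on the log2 scale and the genotypes overlapped, with p = 0.514 in a two-sided exact permutation test. That ratio was chosen after the values had been seen. Epithelial markers (Epcam, Krt8, Krt18, Krt19, Esrp1 and Grhl2) were at a summed 47.2 to 60.9 FPKM in KO and 41.9 to 50.1 FPKM in WT embryos. The differences of all 6 were positive, at 0.08 to 0.18 with a median of 0.14, and 0 of the 6 had an unadjusted p under 0.05.

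**Figure D3:**
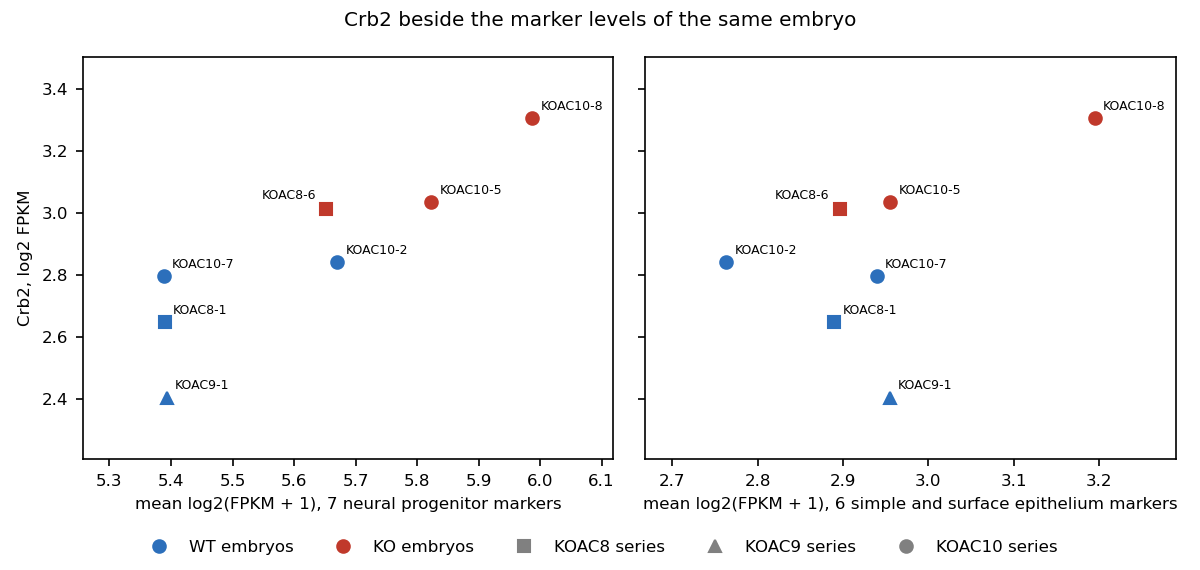
Crb2 (vertical axis, log2 FPKM) against the mean log2(FPKM + 1) of 7 neural progenitor markers (left) or 6 epithelial markers (right), 1 point per embryo, WT blue and KO red. On the left the KO embryo KOAC10-8 is highest on both axes and the WT embryo KOAC10-2 lies beside the KO embryo KOAC8-6 in marker level, and on the right the genotypes are mixed along the horizontal axis.

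None of the 5 members of the PAR module had an unadjusted p under 0.05, and their fitted differences ran from -0.18 for Prkcz to 0.13 for Pard3. Prkcz, which encodes PKCζ, measured 8.01 FPKM in KOAC8-6, 8.54 in KOAC10-5 and 7.02 in KOAC10-8. Among WT embryos it measured 8.47 FPKM in KOAC8-1, 8.51 in KOAC9-1, 9.09 in KOAC10-2 and 9.996 in KOAC10-7. The KO embryo KOAC10-5 lay inside the WT range and the other KO embryos below it. The KO mean of Prkcz was 87.1% of the WT mean, a log2 difference of -0.18 (standard error 0.09, 95% interval -0.38 to 0.03, adjusted p = 0.481 in limma). Without KOAC10-5 the difference of Prkcz was -0.23 with an unadjusted p = 0.0456 in limma, and without KOAC10-8 it was -0.11. The values of Prkcz are per gene and sum the full-length kinase with its shorter brain form.

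Prkci encodes the other atypical kinase. It ranged from 21.7 to 23.2 FPKM in KO and from 21.8 to 23.9 FPKM in WT embryos, with a log2 difference of -0.03 (95% interval -0.16 to 0.10). Prkci was the more abundant of the pair in every embryo, by 2.39 to 3.11 times. Prkcz made up 26.1% ± 1.98 (SD, n = 3) of the summed FPKM of both kinases in KO and 28.4% ± 1.33 (SD, n = 4) in WT embryos. The log2 ratio of Prkci to Prkcz averaged 1.51 in KO and 1.34 in WT embryos, a difference of 0.17. The genotypes overlapped, and a two-sided exact permutation test gave p = 0.143, or 0.214 after Benjamini-Hochberg adjustment over 3 paralog ratios.

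Pard6g, an adaptor that brings the kinase to its partners, measured 23.2 FPKM in KOAC8-6, 22.9 in KOAC10-5 and 22.5 in KOAC10-8. The WT values were 23.9 FPKM in KOAC8-1, 24.4 in KOAC9-1, 23.6 in KOAC10-2 and 26.0 in KOAC10-7, all above the 3 KO values. The gap between the highest KO value and the lowest WT value was small, and the genotypes overlapped once each embryo was scaled to a common sum of FPKM. The KO mean of Pard6g was 93.4% of the WT mean, a log2 difference of -0.09 (standard error 0.05, adjusted p = 0.516 in limma; exact permutation test, two-sided, p = 0.0571). Its paralog Pard6b was at 3.79 to 4.13 FPKM in KO and 3.26 to 4.00 FPKM in WT embryos, a log2 difference of 0.07 (standard error 0.08). Pard6g held 84.9% to 87.8% of the summed FPKM of the pair. The log2 ratio of Pard6b to Pard6g averaged -2.54 in KO and -2.72 in WT embryos, a difference of 0.19. The genotypes overlapped, and a two-sided exact permutation test gave p = 0.143, or 0.214 adjusted over the 3 ratios.

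**Figure D4:**
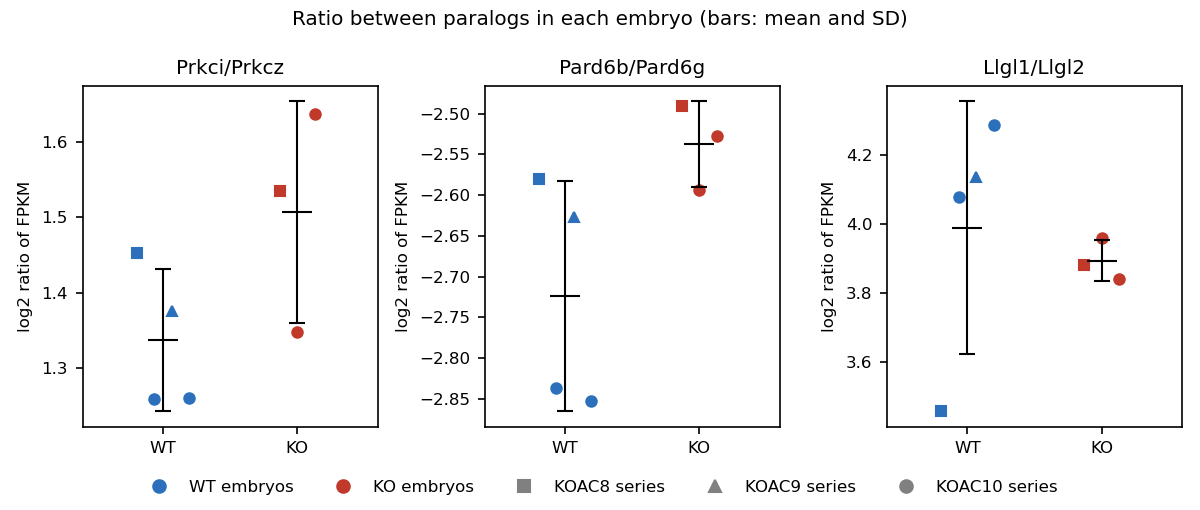
Log2 ratio of FPKM between paralogs (vertical axis, not starting at 0) in each WT (blue) and KO (red) embryo for the atypical kinases, the PAR6 adaptors and the LGL proteins, with black bars for mean and SD. The genotypes overlap in all 3 panels, and the WT embryo KOAC8-1 has the lowest Llgl1 to Llgl2 ratio.

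Pard3, the scaffold of the module, varied most within a genotype relative to its mean among the PAR members. The KO embryos were at 41.7 FPKM in KOAC8-6, 27.7 in KOAC10-5 and 34.4 in KOAC10-8, and the WT embryos between 27.3 and 33.7 FPKM. The highest and the second lowest of the 7 values were thus both KO embryos. The log2 difference of Pard3 was 0.13 (standard error 0.14, 95% interval -0.20 to 0.46) and turned to -0.012 without KOAC8-6, while it was 0.28 without KOAC10-5.

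The Scribble module members had positive differences that stayed within the spread of the embryos. Llgl1, whose product antagonises the atypical kinases at the basolateral side, measured 58.6 FPKM in KOAC8-6, 59.9 in KOAC10-5 and 59.0 in KOAC10-8. The WT values were 53.6 FPKM in KOAC8-1, 52.2 in KOAC9-1, 59.4 in KOAC10-2 and 58.0 in KOAC10-7, of which that of KOAC10-2 lay within the KO range. The log2 difference of Llgl1 was 0.09 (standard error 0.06, adjusted p = 0.585 in limma). Llgl2, the paralog of columnar epithelia, measured 3.85 to 4.12 FPKM in the KO embryos. The WT values were 4.87 FPKM in KOAC8-1, 2.97 in KOAC9-1, 3.05 in KOAC10-2 and 3.43 in KOAC10-7. The WT embryo KOAC8-1 was the highest of all 7 and the other 3 WT embryos were the lowest. Without KOAC8-1 the log2 difference of Llgl2 went from 0.14 to 0.26, with an unadjusted p = 0.0167 and an adjusted p = 0.419 in limma. Without KOAC9-1 it was 0.077, and without KOAC10-2 it was 0.086.

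Llgl1 exceeded Llgl2 by 10.99 to 19.5 times. Their log2 ratio averaged 3.89 in KO and 3.99 in WT embryos, and a two-sided exact permutation test gave p = 0.714, which was also the value adjusted over the 3 ratios. Dlg1, a scaffold with PDZ domains, ranged from 46.0 to 51.5 FPKM in KO and 44.8 to 50.8 FPKM in WT embryos, a log2 difference of 0.04 (95% interval -0.12 to 0.19). For Tjp1, which encodes ZO-1, the link from tight junctions to actin, KO embryos were at 33.3, 29.8 and 30.8 FPKM in KOAC8-6, KOAC10-5 and KOAC10-8. WT embryos were at 30.9 FPKM in KOAC8-1, 27.1 in KOAC9-1, 29.4 in KOAC10-2 and 32.8 in KOAC10-7, across most of the same range. The log2 difference of Tjp1 was 0.06 (standard error 0.07, 95% interval -0.12 to 0.24). It was 0.012 without KOAC9-1, 0.015 without KOAC8-6 and 0.10 without KOAC10-7.

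Seen by embryo, the WT embryo KOAC9-1 held the lowest value of 5 of the 10 members and the KO embryo KOAC8-6 the highest value of 4. KOAC8-6 was above the mean of the 7 embryos for 8 members and the WT embryo KOAC10-2 for 2. Among genes at least as variable over the 7 embryos, those closest to Prkcz in centred log2(FPKM + 1) were Slc33a1, Shisa2 and Fam168a, with root mean square differences of 0.0327, 0.0350 and 0.0367 over 7 embryos. Those closest to Tjp1 were Gm48418, Fastkd2 and Brf1, at 0.0325, 0.0339 and 0.0340. The SDs of Prkcz and Tjp1 themselves were 0.140 and 0.0973 on that scale. These profiles were the closest of 7171 candidates for Prkcz and of 11171 for Tjp1, and close ones can arise by chance in so large a search.

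The members lie on 8 different autosomes in the GENCODE M21 annotation of GRCm38. Crb2 lies on the plus strand of chromosome 2 at 37776249 to 37799103, Prkcz on the minus strand of chromosome 4 at 155260129 to 155361361, and Tjp1 on the minus strand of chromosome 7 at 65296165 to 65527781. Paralogs were separable at the level of reads, since at most 1.08% of the 50-base stretches of any member also occurred in transcripts of other genes. That value was for Prkcz, with Prkcz2. For Crb2 it was 0.956%, all with Dennd1a, whose exons overlap those of Crb2 on the opposite strand, and for Llgl1 it was 0.309% with Flii in the same arrangement. The library kit does not keep the strand, so reads from these overlaps cannot be told apart.

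Partners of the members were read from a list of 56 other polarity and junction genes, all of which were tested. Of these, 0 had an adjusted p under 0.05 in limma, and 6 had an unadjusted p under 0.05, which is 3 higher and 3 lower in KO embryos, beside 5.27% and 6.19% of all genes tested. The median log2 difference of the 56 was 0.04, and 41 were positive and 15 negative. The genotypes did not overlap for 7 of the 56, 5 with higher and 2 with lower KO values, beside 11.6% of all genes tested, 5.61% higher and 5.98% lower.

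Of the 7 partners in the Crumbs module, 1 (Lin7b) had an unadjusted p under 0.05. Mpp5, the PALS1 scaffold that binds Crumbs proteins, measured 12.1 to 16.1 FPKM in KO and 10.54 to 13.98 FPKM in WT embryos, a log2 difference of 0.25 (standard error 0.12, adjusted p = 0.486 in limma). Patj, the next scaffold in line, had a log2 difference of -0.29 (standard error 0.16), and Lin7b, a small PDZ adaptor of PALS1, one of -0.34 (standard error 0.14, unadjusted p = 0.0470 in limma). The other Crumbs genes were low, Crb1 at 0.623 to 1.25 FPKM and Crb3, the epithelial form, at 1.10 to 1.62 FPKM over the 7 embryos, with overlapping genotypes. Crb2 was thus the most abundant Crumbs message in every embryo.

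In the Scribble module, Scrib was at 70.1 to 75.5 FPKM in KO and 57.8 to 72.2 FPKM in WT embryos, a log2 difference of 0.12 (standard error 0.08). Dlg2, a DLG scaffold of neurons, measured 1.59 to 2.36 FPKM in KO and 2.48 to 4.41 FPKM in WT embryos, without overlap. The log2 difference of Dlg2 was -0.51 (standard error 0.19, unadjusted p = 0.0316 and adjusted p = 0.4001 in limma). Of the 8 genes of PAR-1 kinases and the LKB1 complex, 0 had an unadjusted p under 0.05. In the PAR group, Pard6a had a log2 difference of 0.03 (95% interval -0.23 to 0.29) and Cdc42, the small GTPase that binds PAR6, one of -0.02 (95% interval -0.16 to 0.11).

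Among adherens junction genes, Cdh1 and Cdh2, which encode E-cadherin and N-cadherin, each had a log2 difference of 0.06, with standard errors of 0.08 and 0.06. Nectin3, an adhesion molecule beside the cadherins, was at 23.4 to 29.1 FPKM in KO and 20.3 to 23.3 FPKM in WT embryos, a log2 difference of 0.22 (standard error 0.08, adjusted p = 0.403 in limma). Ctnna2, the neural α-catenin, had one of -0.19 (standard error 0.07, unadjusted p = 0.0365 in limma).

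The smallest adjusted p of the 56 belonged to Epb41l5, a FERM protein that binds Crumbs proteins. Epb41l5 measured 8.61 FPKM in KOAC8-6, 8.90 in KOAC10-5 and 9.25 in KOAC10-8, and the WT values ran from 6.95 to 8.07 FPKM, with no overlap. Its log2 difference was 0.22 (standard error 0.07, unadjusted p = 0.0145 and adjusted p = 0.349 in limma). Msn, which encodes the actin linker moesin, had a log2 difference of 0.16 (standard error 0.06, unadjusted p = 0.0381). With the neural progenitor mean as a covariate, 1 of the 56 partners had an unadjusted p under 0.05 instead of 6, and the share of all genes went from 11.5% to 4.32%. That covariate itself went with genotype, so these falls cannot be read as a result about the partners.

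Of the skeletal muscle and mesenchyme markers, 0 had an adjusted p under 0.05 in limma. Of 6 muscle markers, 6 had a negative difference with an unadjusted p under 0.05, as did 4 of 6 mesenchyme markers, beside 6.19% of all genes tested. The summed level of the muscle markers was 71.9 to 113 FPKM in KO and 169 to 258 FPKM in WT embryos, and that of the mesenchyme markers 605 to 794 and 824 to 932 FPKM. Neuron markers summed to 676 to 798 FPKM in KO and 684 to 840 FPKM in WT embryos, with 0 of 7 at an unadjusted p under 0.05. Heart markers summed to 383 to 503 and 336 to 407 FPKM, with 3 of 6 positive at that p, beside 5.27% of all genes. At that p, 2 of 5 endothelium markers were positive and 2 of 6 erythroid markers negative, beside the same 5.27% and 6.19%. Whatever the p, 3 endothelium differences were positive and 2 negative, and 5 erythroid differences were negative and 1 positive (Hbb-bh1, 0.51). The mesenchyme markers Twist1 and Prrx1 had log2 differences of 0.05 and -0.06. The part of these differences in the values above was not tested.

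**Figure D5:**
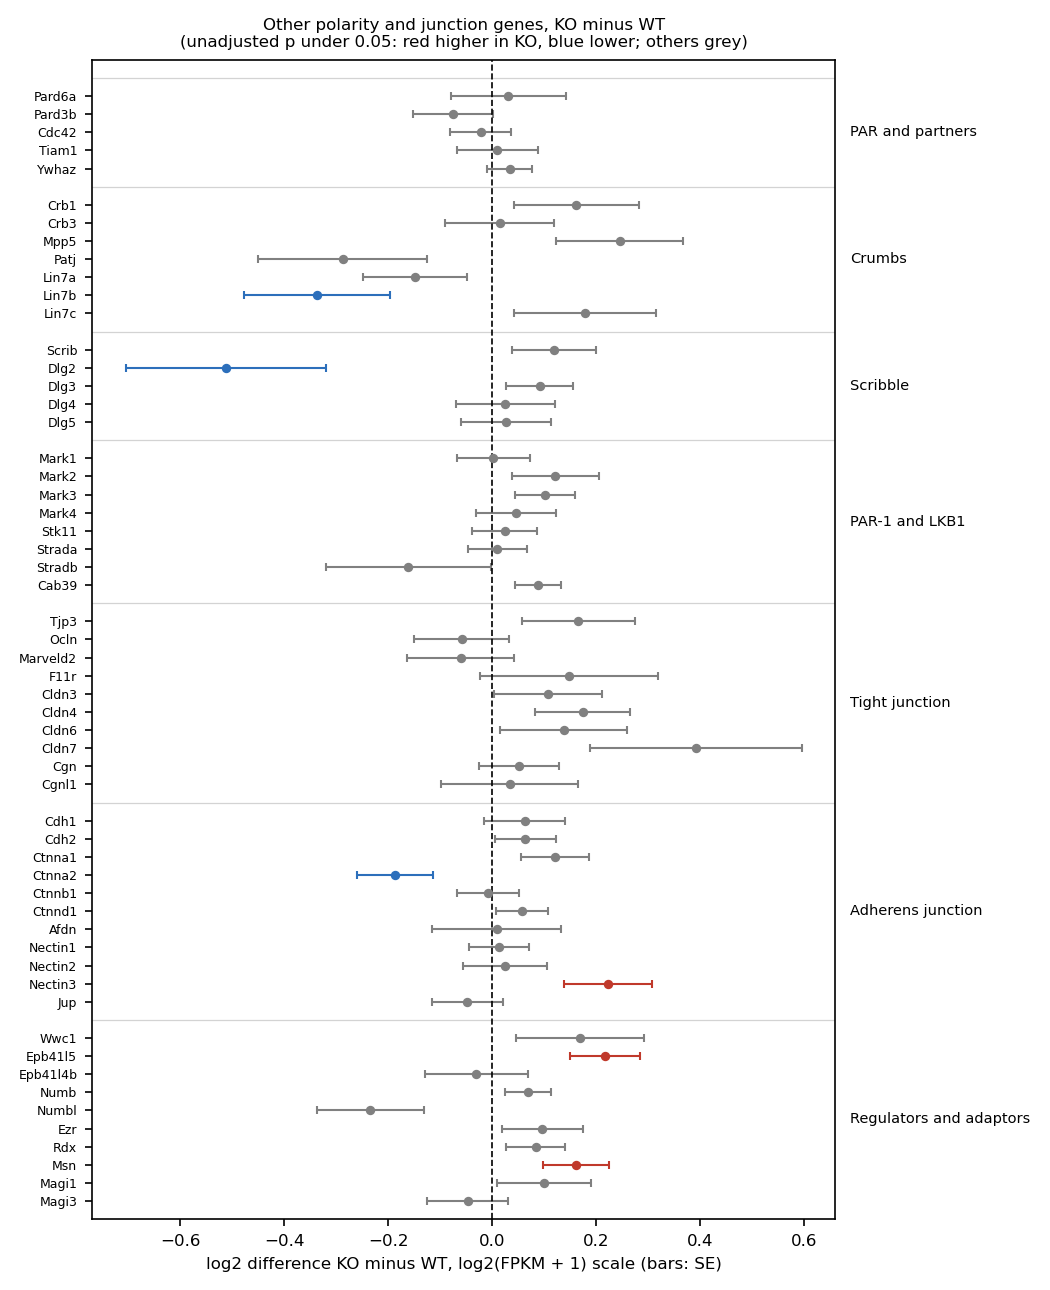
Fitted log2 difference, KO minus WT (horizontal axis, log2(FPKM + 1) scale, bars for standard errors), of 56 other polarity and junction genes grouped by module. The 3 genes in red and 3 in blue have an unadjusted p under 0.05, and none of the 56 has an adjusted p under 0.05.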

How the data were processed

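TruSeq RNA v2 libraries, which do not keep the strand, were made from 7 whole embryos, 3 KO and 4 WT, grouped by the genotype in the sample labels. The authors deposited FPKM values per gene and embryo. The submitters' processing notes name Salmon, DESeq2, MultiQC and GRCm38, and the annotation is not given in the sources used here. The authors also deposited a mean signal per gene (counts divided by size factors), used here to judge depth. The log2 fold changes with their errors and the p-values of the authors' comparison were not used. Unmapped value columns numbered 0. From the deposited low FPKM values, which lie near whole multiples of a step, and the mean signal, the counts per embryo were estimated.

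Values were taken as log2(FPKM + 1), with a minimum mean of 1 FPKM, and KO was compared with WT in limma 3.58.1 (R 4.3.3, lmFit, eBayes with trend, no covariate, Benjamini-Hochberg threshold of 0.05), which was tested on simulated data. Intervals are 95% intervals of that fit. Single values were compared by exact permutation over the 35 splits. Genes named are Slmap, the members, partners with an unadjusted p under 0.05 or a role beside a member, markers, and the 3 profiles closest to Prkcz and to Tjp1. The partners Patj, Mpp5, Crb1, Crb3, Scrib, Pard6a, Cdc42, Cdh1 and Cdh2 are named for their role. A pair of genes on the fixed lists is not reported here and was left out of the list counts and sums. Members and lists were chosen with earlier results of these data known. Shared stretches were found with blastn 2.17.0 in GENCODE M21 transcripts. Alternatives were pseudocounts of 0.1 and 0.01, no filter, a minimum of 5 FPKM, other scalings, covariates, robust and weighted fits, and leaving out embryos. Embryos were called poor in hepatoblast markers where Afp was under 0.1 of its highest value.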

Additional observations from a re-analysis of the deposited data

Results flagged for a closer look

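Among 19 genes and ratios examined in the 4 WT embryos, 1 had an embryo far from the rest, where about 1 in 20 is what chance gives. In Msn, the WT embryo KOAC10-7 was lowest at 44.7 FPKM, against 46.5 to 46.8 FPKM in the other 3, so that the gap made up 0.848 of the WT range.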

How the results depend on the processing

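An adjusted p under 0.05 was reached by 0 members and 0 partners in all 21 alternatives, of which the fit to the KOAC10 series alone was added after seeing the data. Members with an unadjusted p under 0.05 numbered 1, and 0 with the neural progenitor mean, which went with genotype, as a covariate or in KOAC10 alone. With each embryo left out they numbered 1 to 2, with Prkcz added without KOAC10-5 and Llgl2 without KOAC8-1. Partners with an unadjusted p under 0.05 numbered 6, but 3 with Afp as a covariate, 1 with the neural progenitor mean or in KOAC10 alone, and 1 to 9 with each embryo left out. They numbered 1 without KOAC10-8, 2 without KOAC8-6 or KOAC9-1, 3 without KOAC10-2 and 9 without KOAC10-5. Over all genes the unadjusted count, 1846, was 1889 with Afp as a covariate, 695 with the neural progenitor mean and 786 in KOAC10 alone. It was 1255 without KOAC10-8, 1261 without KOAC9-1, 1409 without KOAC8-6, 1601 without KOAC10-2 and 2630 without KOAC10-5. Over all genes 6 had an adjusted p under 0.05, against 10 with Afp, 2 with the neural progenitor mean, 17 without the Afp-poor embryos, 13 in KOAC10 alone, and 7 to 12 with each embryo left out, 12 being without KOAC8-1. Members with no overlap numbered 2, and 1 with a common sum, where Pard6g overlapped. They numbered 2 to 4 with each embryo left out, with 4 (Pard3 and Prkcz added) without KOAC10-5 and 3 without KOAC8-1 or KOAC10-2. The share of all genes without overlap was not counted in these settings, and groups of fewer embryos part more often by chance. Crb2 kept its direction in all 21 alternatives, from 0.13 to 0.56. As its KO and WT values did not overlap, leaving out embryos or changing the pseudocount or filter could not turn that sign. The sign turned for Prkci with the neural progenitor mean (0.069), for Pard3 without KOAC8-6 (-0.012, and up to 0.28 with other embryos left out), for Dlg1 without KOAC8-6 (-0.00066, and up to 0.079) and in KOAC10 alone (-0.015), and for Tjp1 in KOAC10 alone (-0.034). The Llgl1 to Llgl2 ratio ran from -0.27 to 0.0028 with each embryo left out, and was 0.064 without the Afp-poor embryos. The causes were not tested. No paired analysis was possible because replicate numbers were given in accession order and pair no embryos. The KOAC series in the embryo names, shared by KO and WT embryos in KOAC8 and KOAC10, served as a block, under which Crb2 was again the 1 member with an unadjusted p under 0.05. Since KOAC9-1 is alone in its series, the block gave the members the same differences as leaving that embryo out. Counting errors were at most 4.21% of a member's mean count. For Pard6g the error was 1.51%, where the highest KO value was 23.2 FPKM and the lowest WT value 23.6 FPKM. Depth therefore limits what so small a gap can show.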
